A study of Mus musculus with 16 samples.

Results

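Choroid plexus transcripts were examined in 16 RNA sequencing libraries of mouse brain, as 10 named genes (Ttr, Folr1, Kcnj13, Clic6, Aqp1, Otx2, Kl, Enpp2, Kcne2 and Slc4a5) of the 24176 gene symbols listed. The genes were chosen by name as known products of the choroid plexus, with earlier results of these data known, and all 10 were listed. Counts of members set beside shares of all genes below are therefore descriptions. The 16 libraries formed 8 groups of 2 and compared wild-type mice with mice carrying a conditional Rai1 knockout (Rai1CKO); Rai1 encodes a nuclear protein that binds chromatin. Cortex at 3 weeks was wild type or Nestin-Cre;Rai1CKO, and striatum at 3 weeks and at 12 weeks was wild type or Gad2-Cre;Rai1CKO, all in B6/FVB F1 mice. Hypothalamus at 8 weeks was wild type or Vglut2-Cre;Rai1CKO in B6/129 F1 mice, so region, strain, driver and age change together there. Nestin-Cre acts in the neural progenitor lineage, Gad2-Cre in inhibitory neurons and Vglut2-Cre in excitatory neurons that use that transporter. The sources used here do not say whether the wild types carried a Cre or a floxed allele. Nor do they tie the 2 replicates of a group to different mice, and each p-value below therefore reflects library-to-library spread that may be technical.

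The choroid plexus is a folded epithelium that hangs into the brain ventricles and makes cerebrospinal fluid. Its cells are joined to, but distinct from, the ciliated ependyma that lines the ventricles, and they sit beside cortex, striatum and hypothalamus without being part of any of them. They secrete transthyretin (Ttr), a carrier of thyroxine and of retinol-binding protein, and move ions, water and folate from blood to fluid.

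Depth was 21708240 to 35635557 reads per library, estimated from the steps that single reads make in the RPKM values (reads per kilobase of gene model, scaled to library size). Rai1 was measured as a check of the labels and was not lower in every set labelled knockout. In cortex it was 5.02 ± 0.954 RPKM in libraries labelled wild type and 3.65 ± 0.88 in those labelled knockout (SD, n = 2). In the other 3 sets it was higher in the libraries labelled knockout, with the largest difference in striatum at 12 weeks, 4.98 ± 0.142 against 12.8 ± 0.659 (limma adjusted p = 0.0164). The sources used here do not give the deleted part of the gene, and whether labels were exchanged in those sets cannot be told from these values. Wild type and knockout below always mean libraries so labelled, and every direction between them rests on the label. The 9 striatal marker genes listed summed to 674 to 1070 RPKM in striatal libraries against 31.8 to 109 elsewhere, and the 8 cortical genes to 163 to 181 in cortex against 4.8 to 20.3 elsewhere. The 10 hypothalamic genes summed to 236 to 286 in hypothalamus and to at most 10.9 elsewhere.

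Start-site sequence is shown for the 3 members which, with Ttr, had all 4 cortical libraries above the other 12, and for Otx2, whose product is a homeodomain factor needed to form the choroid plexus. RefSeq promoter windows of build GRCm38.p6 (250 bases before to 50 after a start) covered 6 of the 10 genes with 10 windows, and Ttr, Folr1, Clic6 and Enpp2 were not among them. The windows lie at chr6:55336049-55336348 on the + strand (Aqp1), chr1:87394680-87394979 on the - strand (Kcnj13), chr6:83237125-83237424 on the + strand (Slc4a5) and chr14:48665060-48665359 on the - strand (1 of 4 Otx2 windows). Capitals mark TATAAA, the TATA box, or TAATCC, the core bound by OTX homeodomain proteins, searched on both strands (TTTATA and GGATTA in reverse).
Aqp1: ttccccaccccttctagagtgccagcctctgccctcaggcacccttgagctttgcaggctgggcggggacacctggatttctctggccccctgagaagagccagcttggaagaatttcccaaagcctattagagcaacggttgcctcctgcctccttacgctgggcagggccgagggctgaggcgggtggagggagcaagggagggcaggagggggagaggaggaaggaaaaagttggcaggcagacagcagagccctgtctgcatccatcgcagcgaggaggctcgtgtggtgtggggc
Kcnj13: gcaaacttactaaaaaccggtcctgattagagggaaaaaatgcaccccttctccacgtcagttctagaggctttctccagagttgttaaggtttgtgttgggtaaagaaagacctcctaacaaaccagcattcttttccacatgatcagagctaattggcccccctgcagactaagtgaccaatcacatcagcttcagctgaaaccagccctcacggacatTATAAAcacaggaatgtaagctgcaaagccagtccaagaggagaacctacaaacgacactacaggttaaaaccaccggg
Slc4a5: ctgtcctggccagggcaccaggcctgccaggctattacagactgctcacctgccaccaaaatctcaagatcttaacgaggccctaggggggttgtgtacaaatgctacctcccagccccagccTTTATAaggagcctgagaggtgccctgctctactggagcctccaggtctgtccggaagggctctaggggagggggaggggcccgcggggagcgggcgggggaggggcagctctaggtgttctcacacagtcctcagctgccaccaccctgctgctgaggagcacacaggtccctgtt
Otx2: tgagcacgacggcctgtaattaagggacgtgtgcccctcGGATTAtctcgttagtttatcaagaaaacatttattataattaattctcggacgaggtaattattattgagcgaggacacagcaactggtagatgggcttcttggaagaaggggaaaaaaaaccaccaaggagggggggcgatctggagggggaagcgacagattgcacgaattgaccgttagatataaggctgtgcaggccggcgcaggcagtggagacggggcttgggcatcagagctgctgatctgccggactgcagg
The Kcnj13 window holds TATAAA 29 bases before its start, and the Slc4a5 window holds it in reverse 127 bases before. Of the 10 windows 3 held TATAAA, against 13.6% of all 32851 windows of this length. TAATCC was in 1 of the 10, in reverse 211 bases before the Otx2 start, against 7.06% of all windows. These are matches of letters and show no binding.

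Ttr RNA was highest in cortex, lower in striatum and at or near 0 in hypothalamus. In cortex the libraries labelled wild type held 10.2 and 15.96 RPKM and those labelled knockout 24.1 and 23.0, from 351.5 to 823 reads. In striatum at 3 weeks the values were 5.58 and 4.47 for wild type, then 2.65 and 3.89 for the knockout. In striatum at 12 weeks they were 1.24 and 0.854 for wild type, then 3.09 and 2.95 for the knockout. All 4 cortical libraries thus lay above all 8 striatal ones, and the 3- and 12-week striatal libraries overlapped in range. In hypothalamus the values were 0.0189 and 0 for wild type, then 0.0359 and 0.0181 for the knockout, at most 1 read in any library. Those lie under the 3 reads that a count of 0 allows (0.105 to 0.113 RPKM for Ttr in these libraries, counting error only). Of the 7 neighbouring pairs of groups in the order of Ttr means, striatum at 3 weeks and at 12 weeks labelled knockout overlapped (3.27 ± 0.873 and 3.02 ± 0.0988, SD, n = 2), as did the 2 hypothalamic groups at that depth.

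Aqp1, the water channel of the apical membrane, had the same upper order. It was 0.321 and 0.366 RPKM in wild-type cortex and 0.672 and 0.816 in cortex labelled knockout, from 25 to 66 reads. The 12 other libraries lay between 0.0155 and 0.158 RPKM, 1 to 15.5 reads, with the highest in wild-type striatum at 3 weeks. Slc4a5, an electrogenic sodium bicarbonate cotransporter of the same membrane, was 0.0796 and 0.214 RPKM in wild-type cortex and 0.168 and 0.256 in cortex labelled knockout. Outside cortex it was at most 0.0356 RPKM, and it was listed at 0 in 3 striatal libraries. Kcnj13, the inward rectifier potassium channel Kir7.1, was 1.64 and 1.802 RPKM in wild-type cortex and 1.46 and 2.06 in cortex labelled knockout, and 0.376 to 0.984 elsewhere. Cortex above the other 12 libraries was found for 4 of the 10 genes, against 5.1% of 20473 genes detected in any library. Kcnj13 lies within Gigyf2 on the opposite strand, which was at 2.75 to 4.75 RPKM, and the sources used here do not give the strand setting of the counting, so its values are uncertain.

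Folr1, the folate receptor that carries folate across this epithelium, was 0.113 to 0.498 RPKM in cortex, 0.0997 to 0.176 in striatum at 3 weeks and at most 0.112 in the other 8 libraries. Its lowest cortical library fell within the striatal range, and Anapc15 overlaps it on the opposite strand, at 0.789 to 3.3 RPKM. Kcne2, a potassium channel beta subunit, was 0.173 to 0.272 RPKM in cortex, 0 to 0.0858 in striatum and 0.0759 to 0.209 in hypothalamus. Hypothalamus therefore overlapped cortex for this gene, at 3 to 8 reads a library.

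The other 4 genes did not follow the cortical order. Kl, which encodes Klotho, a membrane coreceptor for fibroblast growth factor 23, was 0.932 and 1.57 RPKM in wild-type cortex and 1.44 and 1.8 in cortex labelled knockout. In hypothalamus it was 1.54 and 1.44 for wild type, then 1.31 and 1.11 for the knockout, 129 to 171.5 reads a library, within the cortical range. The 8 striatal libraries lay lower, at 0.233 to 0.625 RPKM. Otx2 had its highest means in hypothalamus, overlapping cortex, with 0.379 and 0.457 RPKM for wild type, then 0.320 and 0.339 for the knockout, and 0.132 to 0.403 in cortex. In striatum it was 0.199 and 0.130 RPKM in wild type at 3 weeks, 0.0977 and 0.0836 in knockout at 3 weeks, 0.0171 and 0 in wild type at 12 weeks, then 0.0504 and 0.0793 with the knockout. All 4 hypothalamic libraries lay above all 8 striatal ones for these 2 genes, Kl and Otx2, against 29.3% of genes detected. The antisense gene Otx2os1 was at most 0.0609 RPKM, and reads of the pair cannot be told apart without strand.

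Clic6, a chloride intracellular channel protein, was lowest in the region richest in Ttr. It was 0.493 to 0.791 RPKM in cortex, 1.24 to 2.71 in striatum and 2.39 to 2.98 in hypothalamus. Enpp2, which encodes autotaxin, the secreted enzyme that makes lysophosphatidic acid, was 25.8 and 19.3 RPKM in wild-type striatum at 3 weeks and 18.4 and 20.04 in knockout. It was 14.4 to 19.6 RPKM in cortex, 8.33 to 11.3 in striatum at 12 weeks and 11.5 to 14.5 in hypothalamus. Oligodendrocytes also make Enpp2, and the 12 myelin genes listed summed to 2765 to 3643 RPKM in striatum at 3 weeks, 738 to 1344 in cortex, 537 to 690 in striatum at 12 weeks and 841 to 1020 in hypothalamus. The part of myelin RNA in the Enpp2 values was not tested. In whole tissue, fewer cells of a type and less RNA per cell cannot be told apart.

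**Figure D1:**
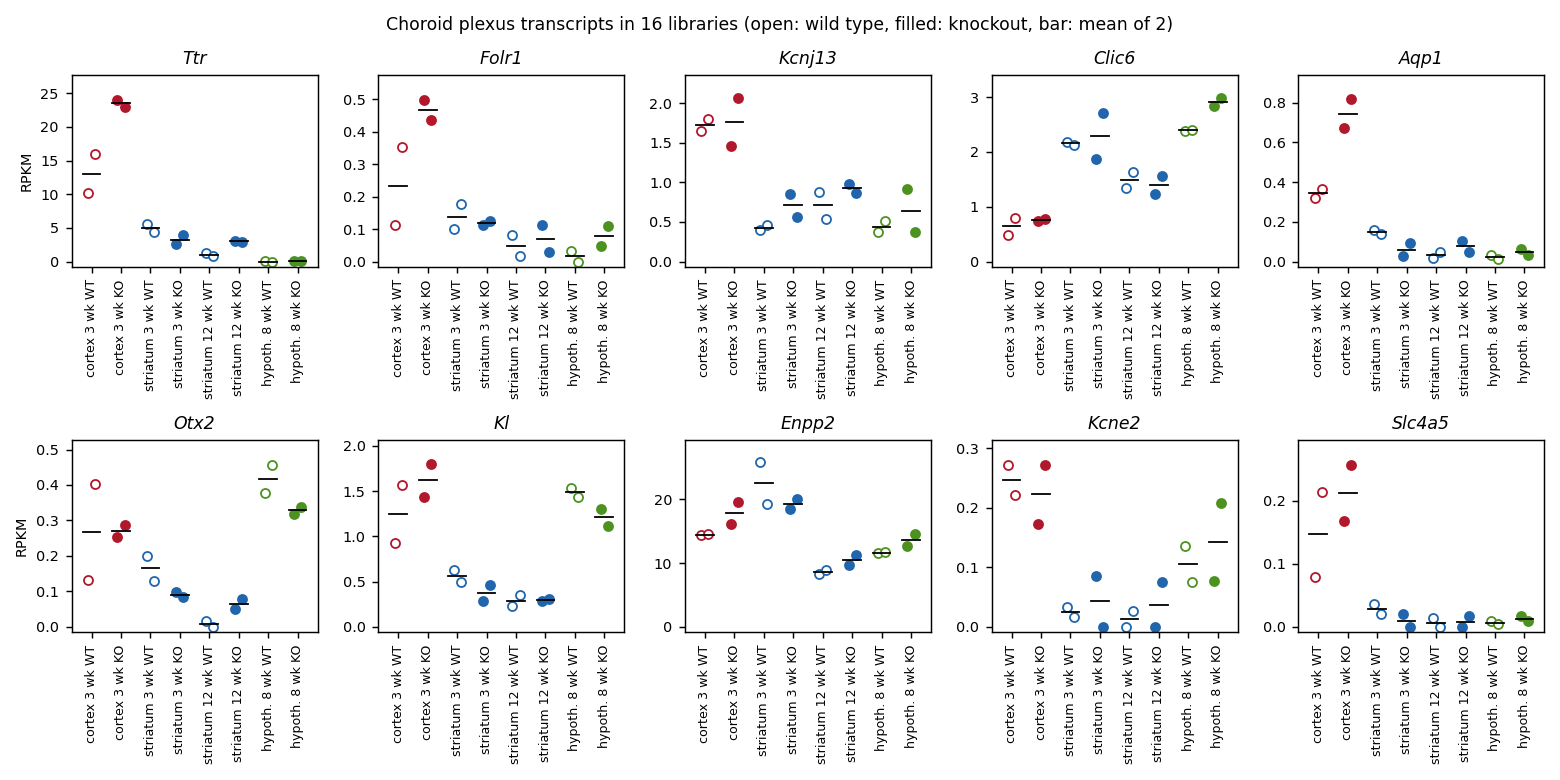
RPKM (linear axis, a scale of its own in each panel) of the 10 choroid plexus transcripts in the 16 libraries, with 2 points per group and a bar at their mean; open points are labelled wild type and filled points knockout. Ttr, Kcnj13, Aqp1 and Slc4a5 have all 4 cortical libraries on top, while Kl and Otx2 are also high in hypothalamus, Clic6 is lowest in cortex and the Enpp2 means are highest in striatum at 3 weeks.

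Counted over the 9 members whose reads could be recovered (not Enpp2), all 9 reached 3 reads in each cortical library. In striatum at 3 weeks 7 or 8 did, and in striatum at 12 weeks 4 and 5 in wild type and 7 in each library labelled knockout. In hypothalamus 5 or 6 reached 3 reads although Ttr did not, with Kcnj13, Clic6, Otx2, Kl and Kcne2 present in every library. These counts are not at equal depth. Estimated reads were 31286898 to 35635557 in striatum at 3 weeks, 21830342 to 23561340 at 12 weeks and 21708240 to 23320021 in hypothalamus. The 10 rows therefore did not follow 1 order over the libraries, and cortex was the region in which all were detected together.

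Ratios to Ttr were taken where Ttr was present. Aqp1 was 2.29% to 3.55% of the Ttr RPKM in cortex, 0.992% to 3.07% in striatum at 3 weeks and 1.34% to 5.65% in striatum at 12 weeks, where it rested on 1 to 6.5 reads. Kl was 5.97% to 9.83% of Ttr in cortex, 10.8% to 11.9% in striatum at 3 weeks and 9.09% to 40.6% at 12 weeks. Otx2 was 1.05% to 2.53% of Ttr in cortex and 2.15% to 3.68% in striatum at 3 weeks. By contrast Clic6 was 3.06% to 4.96% of Ttr in cortex and 39.1% to 70.5% in striatum at 3 weeks, and Enpp2 66.8% to 141% and 432% to 694%. For Kcnj13 the ranges were 6.06% to 16.1% in cortex, 7.08% to 32.1% in striatum at 3 weeks, overlapping cortex, and 29.3% to 71.3% in striatum at 12 weeks. These ratios are of levels per kilobase and are descriptions of single libraries, with no test.

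**Figure D2:**
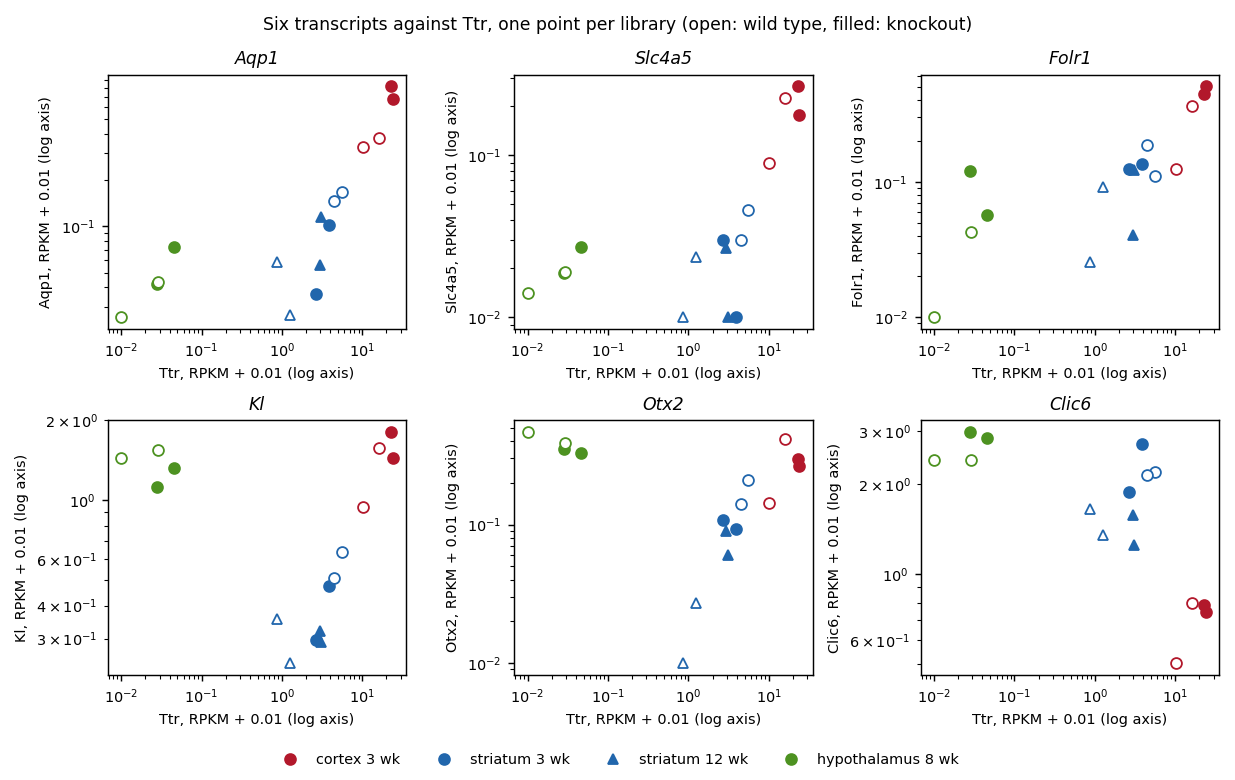
Each of 6 transcripts against Ttr, both as RPKM + 0.01 on log axes, with 1 point per library (colour for region, triangle for striatum at 12 weeks, open for labelled wild type). Aqp1, Slc4a5 and Folr1 run from striatum up to cortex with Ttr, while Kl and Otx2 are high in hypothalamus at the left, where Ttr is at most 0.0359 RPKM, and Clic6 falls towards cortex.

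Tracking of Ttr was tested where regions do not separate the libraries, first over the 8 striatal libraries on the log2(RPKM + 0.5) scale. Otx2 went with Ttr (Pearson r = 0.909, exact permutation p = 0.00201, adjusted p = 0.0181 over the 9 relations computed; Spearman rho = 0.833, p = 0.0154, adjusted p = 0.0461; n = 8). Enpp2 did too (r = 0.825, exact permutation p = 0.0068, adjusted p = 0.0306; rho = 0.857, p = 0.0107, adjusted p = 0.0461). Aqp1 passed by rank only (r = 0.778, exact permutation p = 0.0206, adjusted p = 0.0617; rho = 0.833, p = 0.0154, adjusted p = 0.0461). All tests were two-sided. Without the 2 libraries farthest from the median Ttr, both wild type at 12 weeks, r was 0.821 for Otx2, 0.701 for Enpp2 and 0.902 for Aqp1. The relation of Otx2 lost its call on leaving out either wild-type library at 3 weeks (exact permutation adjusted p = 0.0607 each) or wild-type replicate 1 at 12 weeks (adjusted p = 0.0795), and its adjusted p ranged from 0.00737 to 0.0795 over 11 alternatives. For Enpp2 it was lost on leaving out any of these 3, knockout replicate 2 at 3 weeks or knockout replicate 2 at 12 weeks (exact permutation adjusted p = 0.0545 to 0.199). With wild-type replicate 2 at 12 weeks left out, 4 relations passed, those of Aqp1 and Kl added (exact permutation adjusted p = 0.0187 each). Age holds only 4 striatal libraries each, too few for a value within age. Otx2, Enpp2 and Clic6 each separated the ages completely, so tracking of Ttr and age cannot be told apart for them. The permutation treated the 8 libraries as exchangeable although they form groups by age and label, so a difference between groups alone can give a small p-value. This holds for Aqp1 too, which like Ttr separated by label at 3 weeks and, in wild type, by age.

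The remaining striatal relations did not pass. Kl (r = 0.699), Folr1 (r = 0.658), Clic6 (r = 0.571) and Slc4a5 (r = 0.503) had positive values with exact permutation adjusted p of 0.126, 0.130, 0.216 and 0.263. Kcne2 was at 0.0652, and Kcnj13 at -0.365, which was -0.936 without the 2 libraries farthest from the median Ttr. A second test used only differences between the 2 libraries of each group, which removes region, age, strain and label. Over 8 groups none of the 9 members passed (exact permutation of the signs of the group differences, adjusted p of 0.633 or more, with 0.00781 as the smallest p it allows). The highest correlation was that of Otx2, at 0.674. Of the 8 groups 2 are hypothalamic, where Ttr was at most 1 read and its direction within a pair carries no information.

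By likeness to Ttr over all 16 libraries, the 10 closest of the 12347 other tested genes included Tmem44, 5930403L14Rik, Tiam1, Lhx2, AI854517, Adcy1, Pak6, Fmnl1 and Gpr26 (Pearson r of 0.977 down to 0.960). No choroid plexus gene was among them, and of the tested members Kcnj13 ranked 624 (r = 0.722), Enpp2 1424 (r = 0.484), Kl 3328 (r = 0.0712) and Clic6 11673 (r = -0.779). Over deviations from group means the closest were Cep131, Tfe3, Zfp142, Ticam1, Psg16, Dyrk1b, Lpcat3, 2700046G09Rik, Pcdhb6 and Cd9 (0.870 down to 0.825), and Kl ranked 171 (r = 0.649) and Clic6 386 (r = 0.572). The points share library and depth, the 16 libraries fall into regional clusters, and these values are descriptions.

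Between libraries labelled wild type, Ttr was higher in cortex than in striatum and lower in striatum at 12 than at 3 weeks. Tests used limma on log2(RPKM + 0.5) for the 12348 genes with at least 1 RPKM in 2 libraries, with Benjamini-Hochberg adjusted p-values. Ttr, Kcnj13, Clic6, Kl and Enpp2 passed that filter, and the other 5 members did not. Kcnj13 reached 1 RPKM only in cortex and Kl only in cortex and hypothalamus, so each entered the test through groups where it is high, as Ttr did through cortex and striatum. At 3 weeks Ttr was 13.1 ± 4.06 RPKM in wild-type cortex and 5.03 ± 0.791 in striatum (SD, n = 2; log2 difference 1.27, SE 0.20, adjusted p = 0.000259). Kcnj13 (log2 difference 1.26, adjusted p = 0.000487) and Kl (0.70, adjusted p = 0.0064) were also higher in cortex. Clic6 (-1.23, adjusted p = 5.99e-05) and Enpp2 (-0.61, adjusted p = 0.00714) were lower. Of all tested genes 43.5% were called (20.6% higher and 22.9% lower), and nothing is read from the number of members called, since Kcnj13 and Kl could enter only by being high outside striatum. By separation of the libraries, 6 of the 10 members were higher in cortex (31.6% of detected genes) and Clic6 and Enpp2 lower (30.3%). The call of Kl was lost without wild-type cortex replicate 2 (adjusted p = 0.0899) or wild-type striatum replicate 2 at 3 weeks (0.0588), and that of Enpp2 without wild-type striatum replicate 1 at 3 weeks (0.0853).

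Between 3 and 12 weeks in wild-type striatum, Ttr went from 5.03 ± 0.791 to 1.05 ± 0.272 RPKM (SD, n = 2; log2 change -1.84, SE 0.20, adjusted p = 3.84e-05). The striatal libraries labelled knockout overlapped between the ages, at 3.27 ± 0.873 and 3.02 ± 0.0988 RPKM (SD, n = 2), and the change with age there was not tested on its own. The fall in Ttr therefore rests on the label. Enpp2 fell from 22.5 ± 4.6 to 8.64 ± 0.449 (log2 change -1.32, SE 0.16, adjusted p = 7.4e-05). Kl (-0.43, adjusted p = 0.0804), Clic6 (-0.42, adjusted p = 0.067) and Kcnj13 (0.37, adjusted p = 0.208) did not pass. The 2 calls compare with 31.5% of tested genes, 884 higher (7.16%) and 3011 lower (24.4%), and the median of all tested genes was -0.23. With libraries scaled to a common median ratio the split was 2071 higher and 2368 lower and the median -0.03, and both members were still called lower (-1.66 and -1.08). The libraries of the ages did not overlap for 8 of the 10 members, higher at 3 weeks, against 35.9% of detected genes, and Kcnj13 was higher at 12 weeks (17.2%). Otx2 was among the 8, with 12 and 19 reads at 3 weeks and 0 and 1 at 12 weeks.

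Between wild-type hypothalamus at 8 weeks and striatum at 12 weeks, where strain and age differ too, Ttr was lower in hypothalamus (log2 difference -1.59, SE 0.20, adjusted p = 1.86e-05). That value depends on the pseudocount, from -3.37 to -1.01, and is no measure of the fold, since hypothalamic Ttr was under 3 reads. Kl was 1.49 ± 0.0723 RPKM in hypothalamus against 0.29 ± 0.0807 (SD, n = 2; log2 difference 1.34, SE 0.18, adjusted p = 2.59e-05). Clic6 (0.55, adjusted p = 0.0112) and Enpp2 (0.41, adjusted p = 0.0359) were called higher, and Kcnj13 was not called (-0.35, adjusted p = 0.167). The median of all tested genes was 0.49 in this comparison, with 6731 genes called higher (54.5%) and 1265 lower (10.2%), 64.8% in all. By separation of the libraries, Clic6, Otx2, Kl, Enpp2 and Kcne2 were higher in hypothalamus (55.0% of detected genes) and Ttr and Kcnj13 lower (13.2%). Scaled to a common median ratio, it was near 0 with 3206 higher and 3292 lower. Clic6 then did not pass (0.087, adjusted p = 0.639), Enpp2 changed sign (-0.15, adjusted p = 0.506) and Kcnj13 passed as lower (-0.66, adjusted p = 0.0388). Kl kept its call under that scaling, but it had entered the test through cortex and hypothalamus, with no striatal library above 0.625 RPKM. Enpp2 lost its call on leaving out any 1 of the 4 libraries (adjusted p = 0.0527 to 0.146), and Clic6 without wild-type striatum replicate 1 at 12 weeks (0.096) or wild-type hypothalamus replicate 2 (0.0519).

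With no filter on low values, 20473 genes were tested and the remaining 5 members had a value. In wild type at 3 weeks, cortex was above striatum for Aqp1 (log2 difference 0.38, adjusted p = 0.00481), Kcne2 (0.51, adjusted p = 0.00695) and Slc4a5 (0.29, adjusted p = 0.0253). Aqp1 was lower in striatum at 12 than at 3 weeks (-0.28, adjusted p = 0.0351, and 0.0565 with a filter of 0.1 RPKM in 2 libraries), and Otx2 was higher in hypothalamus than in striatum at 12 weeks (0.85, adjusted p = 0.000325). In that last comparison the median gene of the filtered fit was itself at 0.49. Of the 20473 genes, 5939, 3552 and 9189 were called in these 3 comparisons in that order, so nothing is read from the number of members called. Folr1 passed in none of them. Values this far below the pseudocount of 0.5 give small log2 changes.

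Libraries labelled knockout were compared with wild type in the 4 sets, the question for which the series was made. No tested member passed in any set by limma. Among the 5 tested members Ttr had the largest differences in cortex and in both striatal sets. It was the only tested member with an unadjusted p under 0.05 there. With no filter on low values, Aqp1 also had an unadjusted limma p under 0.05 in cortex (2.75e-05) and in striatum at 3 weeks (0.0231), as did Folr1 in cortex (0.0111). In cortex Ttr was 13.1 ± 4.06 RPKM in wild type and 23.5 ± 0.745 in knockout (SD, n = 2; log2 change 0.86, SE 0.20, adjusted p = 0.201). The younger striatum had 5.03 ± 0.791 and 3.27 ± 0.873 (-0.56, SE 0.20, adjusted p = 0.619). The older striatum had 1.05 ± 0.272 and 3.02 ± 0.0988 (1.20, SE 0.20, adjusted p = 0.0827). In hypothalamus both groups were under 3 reads. Of all tested genes 0.0405% were called in cortex, 0.0324% in striatum at 3 weeks, 0.0405% in striatum at 12 weeks and 0.0081% in hypothalamus, with 773 (6.26%), 932 (7.55%), 543 (4.4%) and 217 (1.76%) at an unadjusted p under 0.05.

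The Ttr difference in striatum at 12 weeks passed when only the compared groups were fitted (adjusted p = 0.0263), and its adjusted p was 0.0263 to 0.763 over 13 alternatives. Its log2 change moved with single libraries in cortex, from 0.55 without wild-type replicate 1 to 1.17 without wild-type replicate 2. The knockout difference of Ttr was larger by 1.76 on the log2 scale at 12 than at 3 weeks in striatum (SE 0.29, unadjusted p = 3.18e-05 by limma, adjusted p = 0.27), which did not pass over all tested genes. No gene was called for that difference (0%), with 1097 (8.88%) at an unadjusted p under 0.05, Enpp2 among them (0.48, SE 0.22, unadjusted p = 0.0489). Without wild-type replicate 1 at 12 weeks the Ttr value passed (1.94, adjusted p = 0.046), and over 16 alternatives the adjusted p was 0.046 to 0.733. Over the mean of the 4 sets Ttr was at 0.39 (SE 0.10, adjusted p = 0.249), and no member was called, against 0.373% of all tested genes (5.2% at an unadjusted p under 0.05).

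**Figure D3:**
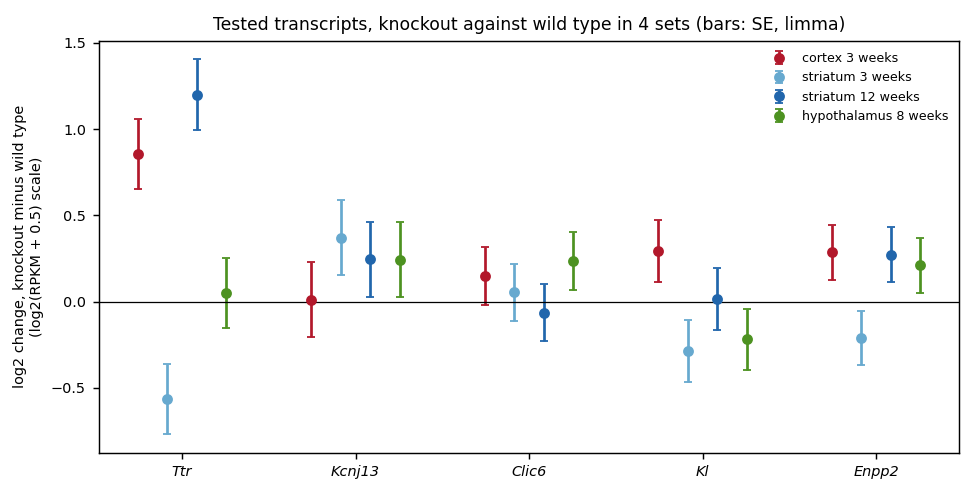
Log2 change of the 5 tested transcripts, labelled knockout minus wild type, in the 4 sets (points, log2(RPKM + 0.5) scale) with standard errors from limma as bars. Ttr ranges from -0.56 in striatum at 3 weeks to 1.20 at 12 weeks, the other 4 genes lie between -0.29 and 0.37, and no point passed the adjusted threshold of 0.05.

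The remaining members were not called either. Kcnj13 differed by 0.01, 0.37, 0.25 and 0.24 on the log2 scale in cortex, younger striatum, older striatum and hypothalamus (SE 0.22 each). Clic6 differed by at most 0.24 (SE 0.17), Kl by -0.29 to 0.29 (SE 0.18) and Enpp2 by -0.21 to 0.29 (SE 0.16). By separation of single libraries, 4 of the 10 members were higher in both cortical libraries labelled knockout than in either wild type (Ttr, Folr1, Aqp1 and Enpp2), against 11.2% of detected genes, and none was lower (17.4%). In striatum at 3 weeks 5 were lower without overlap (Ttr, Aqp1, Otx2, Kl and Slc4a5; 20.1% of genes) and Kcnj13 was higher (9.62%). In striatum at 12 weeks 3 were higher (Ttr, Otx2 and Enpp2; 17% of genes) and none lower (8.76%). In hypothalamus Folr1, Clic6 and Enpp2 were higher (10.8%) and Otx2 and Kl lower (19.4%). Some of these separations rest on few reads. Slc4a5 in striatum at 3 weeks had 6.5 and 3.5 reads in wild type against 3.5 and 0, a tie in reads that only depth separates. Otx2 in striatum at 12 weeks had 1 and 0 reads against 3 and 5, and Folr1 in hypothalamus 1 and 0 against 1.5 and 3.5. With no filter on low values Aqp1 was called higher in cortex labelled knockout (log2 change 0.56, SE 0.08, adjusted p = 0.0245), at 0.744 ± 0.102 against 0.344 ± 0.0317 RPKM (SD, n = 2), among 34 genes called there. With a filter of 0.1 RPKM in 2 libraries it did not pass (adjusted p = 0.0536).

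Markers of neighbouring tissue moved between the same libraries. The 12 meningeal and fibroblast genes summed to 19.5 and 21.2 RPKM in wild-type cortex and to 26.8 and 24.0 in cortex labelled knockout. In striatum at 3 weeks the knockout sums of 5.1 and 8.43 lay on either side of the wild-type sums of 6.28 and 6.74. In hypothalamus the sums were 6.05 to 6.9. In striatum at 12 weeks they were 3.28 and 3.38 in libraries labelled wild type and 3.74 and 4.68 in those labelled knockout, separated before any scaling of the libraries. The 8 endothelial genes summed to 36.4 and 42.6 RPKM in cortex labelled wild type and 57.5 and 43.4 in knockout, and to 44.1 and 40.8 against 28.2 and 37.7 in striatum at 3 weeks, also in the directions of Ttr. At 12 weeks the endothelial sums overlapped (23.0 and 26.5 against 28.9 and 24.8). The 12 ependymal genes had another order, 1.66 to 3.44 RPKM in cortex, 4.86 to 8.92 and 3.48 to 5.86 in striatum at 3 and 12 weeks, and 10.4 to 19.7 in hypothalamus. Ependymal RNA was thus highest where Ttr was at most 1 read. In striatum at 12 weeks ependymal sums were 3.48 and 3.77 in libraries labelled wild type and 5.44 and 5.86 in those labelled knockout, and at 3 weeks 7.29 and 8.92 against 4.86 and 7.12, separated in the same directions as Ttr. Sums of lists were not scaled between libraries. Factors for scaling to a common median ratio were 0.760 and 0.933 in wild-type striatum at 12 weeks and 0.935 and 0.879 in knockout. Whether the separations of sums hold after scaling was not tested. None of the 4 tested ependymal, 6 tested meningeal or 8 tested endothelial genes was called in any of the 4 knockout comparisons, and their part in the Ttr values was not tested.

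Dissection markers also varied. The 9 hippocampal genes listed summed to 22.1 to 33.7 RPKM in cortex and to 13.2 to 18.5 elsewhere. In cortex the sums labelled knockout (28.2 and 30.7) lay between those labelled wild type (22.1 and 33.7). Within striatum at 3 weeks the library labelled knockout replicate 1 had the lowest Ttr (2.65 RPKM), the lowest striatal sum (674 against 917 to 1070) and the highest cortical sum (20.3 against 6.08 to 12.7). Wild-type replicate 2 at 12 weeks had the lowest striatal Ttr (0.854 RPKM) and a cortical sum of 16.1 against 4.8 to 7.0 in the other 3 libraries of that age. In cortex the library labelled knockout replicate 1 held hypothalamic genes at 10.9 RPKM against 2.48 to 3.03, with Avp (vasopressin), singled out for its level there, at 3.52. All 12 myelin genes were higher on average in cortex labelled knockout (sums of 738 and 863 RPKM against 1344 and 1280) and lower in striatum at 3 weeks (3643 and 2861 against 2765 and 2929). All 12 were also higher on average in striatum at 12 weeks (537 and 584 against 640 and 690, with no overlap before scaling) and in hypothalamus (872 and 841 against 875 and 1020), and none was called in any set. The median log2 change of all tested genes went the same way in striatum, at -0.13 at 3 weeks and 0.08 at 12 weeks. In cortex (-0.02) and hypothalamus (-0.06) it went the other way. Of the 8 blood genes 6, the globins, were listed at 0 in all 16 libraries. The part of these shifts in the member values was not tested.

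**Figure D4:**
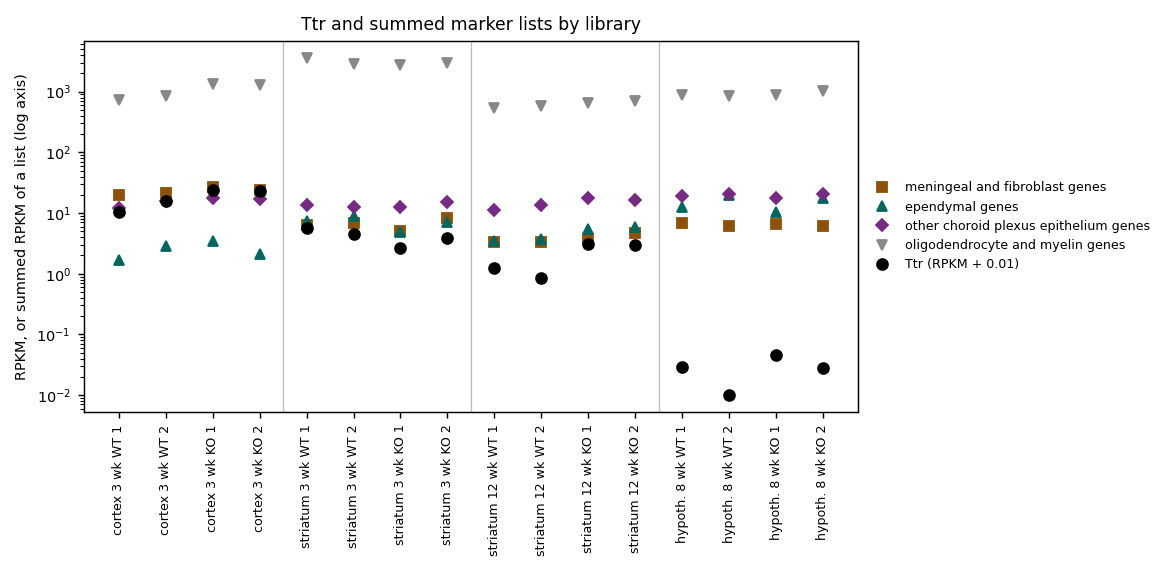
Ttr (RPKM + 0.01) and the summed RPKM of 4 marker lists in each of the 16 libraries, on a log axis, with lines between the 4 sets. Meningeal sums are highest in cortex with Ttr (19.5 to 26.8), ependymal sums are highest in hypothalamus (10.4 to 19.7), where Ttr is at most 0.0359 RPKM, and myelin sums peak in striatum at 3 weeks.

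A longer list of 24 other genes of choroid plexus epithelium was examined beside the 10. Mfrp was listed at 0 in all 16 libraries, and 3 genes had all 4 cortical libraries above the other 12, against 5.1% of detected genes. They were Cldn2, a tight junction claudin (0.289 to 0.423 RPKM against at most 0.196), Tmem72 (0.346 to 0.701 against at most 0.189) and F5, coagulation factor V (0.192 to 0.325 against at most 0.16). These genes were picked for that pattern. For 7 genes all 4 hypothalamic libraries were highest, namely Prlr, Calml4, Slc29a4, Lmx1a, Rdh5, Slc2a12 and Krt18. The share of all detected genes with that order was not counted, so nothing is read from the 7. All 4 hypothalamic libraries lay above the 8 striatal ones for 11 of the 24, against 29.3% of detected genes. The median tested gene was itself higher by 0.49 (log2) in wild-type hypothalamus than in striatum at 12 weeks. Prlr, the prolactin receptor, was 1.86 to 2.26 RPKM in hypothalamus and at most 0.394 elsewhere, and Lmx1a, a homeodomain factor of the roof plate, 1.46 to 2.5 against at most 0.115. Car12, a carbonic anhydrase, went the other way, at 0.756 to 1 RPKM in hypothalamus and 3.52 to 10.1 elsewhere. The summed list was 11.9 to 17.5 RPKM in cortex, 12.5 to 15 and 11.1 to 17.8 in striatum at 3 and 12 weeks, and 17.9 to 20.8 in hypothalamus, so the sum did not follow Ttr. Car12, at 3.52 to 10.1 RPKM outside hypothalamus, weighs heavily in these sums. They are also not scaled between libraries, and are no measure of choroid plexus RNA.

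Of these 24 genes 8 passed the filter, and none was called in any of the 4 knockout comparisons, with median log2 changes of 0.16, -0.02, 0.21 and -0.10 beside medians of -0.02, -0.13, 0.08 and -0.06 over all tested genes. Col9a3, a collagen chain, had the largest value in cortex (0.86, SE 0.19, adjusted p = 0.158). In cortex 14 of the 24 were higher in both libraries labelled knockout without overlap, against 11.2% of detected genes. In striatum 8 were lower at 3 weeks (20.1% of genes) and 8 higher at 12 weeks (17%). For these 24 genes only the direction of Ttr was counted in each set. The opposite directions and hypothalamus were not counted, so the counts do not show that the list moved with Ttr. In wild type at 3 weeks Prlr (0.58, adjusted p = 0.00202) and Slc29a4, a monoamine and nucleoside transporter (0.83, adjusted p = 0.00394), were higher in cortex than in striatum, and Ace, angiotensin-converting enzyme (-0.78, adjusted p = 0.00115), and Col9a3 (-0.88, adjusted p = 0.00212) lower. With age in wild-type striatum Col9a3 (-1.42, adjusted p = 0.000152), Slc2a12 (-0.62, adjusted p = 0.0179) and Slc29a4 (-0.61, adjusted p = 0.0323) fell.

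Other genes of the pathways served by the members were counted too. Of 14 genes of thyroid hormone and retinol handling 11 were tested, and none was called in the 4 knockout comparisons. Dio2, the deiodinase that activates thyroxine, was 15.6 to 18.6 RPKM in cortex, 13.3 to 18.5 in striatum at 3 weeks, 8.88 to 10.6 at 12 weeks and 1.6 to 2.11 in hypothalamus. Klf9, a thyroid hormone responsive factor, was 35.1 to 40.1 RPKM in cortex, 40.1 to 81.7 in striatum and 14 to 17.9 in hypothalamus. With age in wild-type striatum 5 of the 11 were called lower and none higher, beside 24.4% lower and 7.16% higher of all tested genes. Of 15 ion and water transport genes 13 were tested, none was called in the knockout comparisons, and 4 were called lower and 1 higher with age, beside the same shares of all tested genes. Aqp4, the astrocyte water channel, was 29.7 to 31.3 RPKM in cortex, where Aqp1 was at most 0.816, and 28.7 to 38.1 in hypothalamus, and 10.2 to 29.6 in striatum.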

How the data were processed

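RNA was sequenced from flash-frozen brain tissue in 16 libraries, 2 in each of 8 groups. As deposited by the authors, the values are RPKM per gene symbol in 1 table, and the submitters' processing notes name CASAVA 1.8.2, cutadapt 1.6, TopHat2 and build mm9. The sources used here give no TopHat2 version, counter, strand setting or RPKM denominator. RPKM sums were 82332 to 126722 per library. Depth was estimated from the values that 1 read gives, and 52.3% to 62.5% of 288 to 372 single-exon values per library were whole reads within 0.05. The members fell on steps of 0.5 read, and reads were so recovered for 9 of 10 (not Enpp2). Floors are 3 reads and, without molecular identifiers, cover counting error only.

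On log2(RPKM + 0.5), limma 3.58.1 (R 4.3.3) tested the 12348 genes with at least 1 RPKM in 2 libraries, using 8 group means over all 16 libraries, a variance trend, 8 residual degrees of freedom and Benjamini-Hochberg adjustment at 0.05. Tracking used exact permutation tests in Python 3.11.15 (numpy 2.4.6, pandas 2.3.3, scipy 1.17.1). The fit and the tracking were also run on simulated data. The outcome is not given here and no call rests on it. Simulated noise for the fit was independent between genes, so it held no shifts shared by the genes of a library. The alternatives were the pseudocount, the filter, median-ratio scaling, fitting only the compared groups, no variance trend, a replicate block and leaving out each library.

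The members and 16 gene lists were chosen with earlier results of these data known. Named genes were the members, Rai1, the 10 genes most like Ttr by 2 measures, and from each list those of highest mean RPKM (at most 4, or 8 of the other choroid plexus genes); others are said to be picked where named. 1 gene that this rule names is not reported here.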

Additional observations from a re-analysis of the deposited data

Results flagged for a closer look

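For 3 transcripts, every library labelled knockout lay on one side of both wild types in one set and on the other side in another. The Ttr change on the log2(RPKM + 0.5) scale was higher by 1.42 in cortex than in striatum at 3 weeks (0.86 against -0.56), a difference that was not tested. The Ttr change at 3 weeks minus that at 12 weeks in striatum was -1.76 (-0.56 against 1.20), which limma tested as an interaction and which did not pass (adjusted p = 0.27). For Aqp1 the cortical change exceeded that in striatum at 3 weeks by 0.77, on 2.5 to 15.5 reads per striatal library, and this was not tested. For Otx2 the change at 3 weeks minus that at 12 weeks in striatum was -0.32, and the change in striatum at 12 weeks minus that in hypothalamus was 0.30. The first of these did not pass in a fit with a filter of 0.1 RPKM (adjusted p = 0.632 by limma) and the second was not tested. Otx2 had 0 and 1 reads in wild-type striatum at 12 weeks, so its values there are under the 3 reads that a count of 0 allows.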

How the results depend on the processing

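Of the counts of members called, 133 kept their value within 1.5 times and 11 moved. With only the compared groups fitted, 1 member (Ttr) was called in striatum at 12 weeks, and with median-ratio scaling 1 relation to Ttr in striatum passed (Otx2). On leaving out 1 library the counts were 0 to 1 for the change of the knockout difference with age, 2 to 3 for hypothalamus against striatum and 0 to 4 for striatal tracking. Median-ratio scaling turned Kl in striatum at 12 weeks to -0.020 and Enpp2 in hypothalamus against striatum to -0.15. The cause was not tested.

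On leaving out 1 library, the knockout change (log2) of Kcnj13 was -0.18 to 0.21 in cortex and -0.10 to 0.59 in hypothalamus. That of Clic6 was -0.040 to 0.34 in cortex, -0.16 to 0.27 in striatum at 3 weeks and -0.19 to 0.061 at 12 weeks, and that of Kl -0.089 to 0.12 at 12 weeks and -0.12 to 0.017 over the 4 sets. The knockout change in striatum at 12 weeks minus that at 3 weeks was -0.33 to 0.077 for Kcnj13 and -0.34 to 0.10 for Clic6. Correlations with Ttr within groups, each group left out, were -0.162 to 0.254 for Kcnj13 (-0.0611 without wild-type cortex and -0.0152 without knockout hypothalamus), -0.0913 to 0.713 for Slc4a5 and -0.0208 to 0.303 for Enpp2. In striatum that of Kcne2 was -0.138 to 0.167. A library left alone in its group is assumed to vary like the others. Kl in wild-type striatum with age passed with a pseudocount of 0.1 (adjusted p = 0.0421 by limma) and with only the compared groups (0.0437).

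Of all tested genes, those called in cortex (5) were 8 with a pseudocount of 1, 34 without a filter, 26 with a filter of 0.1 RPKM, 39 with median-ratio scaling, 0 with only the compared groups and 2 to 8 without 1 library. In striatum at 3 weeks (4) they were 0 with only the compared groups and 0 to 2 without 1 library. In striatum at 12 weeks (5) they were 9 with scaling, 13 with only the compared groups and 1 to 7 without 1 library. In hypothalamus (1) they were 0 with a pseudocount of 0.1 or scaling, 4 without a filter, 5 with the lower filter, 10 with only the compared groups and 0 to 1 without 1 library. For the change of the knockout difference with age (0) they were 2 without a filter or with the lower one. For the mean of the 4 sets (46) they were 42 without a filter and 44 with the lower one. Between wild types they were 1494 to 4287 with age and 3462 to 4629 for cortex against striatum without 1 library.

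Whether replicate numbers pair the libraries is unresolved. Correlations of deviations were -0.34 in cortex, 0.44 in striatum at 3 weeks, -0.22 in striatum at 12 weeks and 0.15 in hypothalamus. Their signs differ between the 4 sets, so pairing can be neither shown nor excluded from them. With a replicate block no member was called. Ttr then had limma adjusted p = 0.52 in cortex, 0.219 in striatum at 12 weeks and 0.517 for the change of the knockout difference with age. Genes called were 3, 1, 1, 0, 12 and 0 in the 4 sets, the mean and the change of the knockout difference with age. With crossed numbers, chosen after seeing the data, 5 genes were called in cortex and 1 in striatum at 12 weeks. The block could not be fitted between wild types, and fitting only the compared groups is the same fit for the mean. Depth limits Aqp1, Folr1, Otx2, Kcne2 and Slc4a5, which had under 20 reads in every striatal library, and Ttr in hypothalamus.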
